A study of Mus musculus with 4 samples.

Results

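The 4 mouse metallothionein genes (Mt1, Mt2, Mt3 and Mt4) and the zinc regulators Mtf1 and Slc30a1 were examined in the mRNA-seq profiles of wild-type and Bmal1-/- naïve mouse embryonic stem cells (mESCs). These 6 genes are 6 of the 37310 genes counted. The group was chosen by a measured value: Mt4 had the lowest log2 fold change of all genes tested in Bmal1-/- mESCs, and the other 5 genes were added for their family or their role in zinc control. The fold change of Mt4 is therefore a description with no test, and the adjusted p-values given for other members place them among all genes tested but are not independent support for the choice of the group.

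Both groups were JM8 mESCs of the C57BL6/N strain, grown without feeder cells on gelatin in N2B27 medium with LIF and the inhibitors of the naïve "2i" condition, PD0325901 against Mek at 1 µM and CHIR99021 against Gsk3 at 3 µM. The wild-type group is the parental line and the Bmal1-/- group is its CRISPR/Cas9 derivative, with 2 libraries each. Each label stands for 1 cell line, so p-values rest on the spread between libraries of a line and not between independent clones. In the main fit that spread is pooled in part over genes of like level. A difference of genotype cannot be told apart from a difference between these lines. The labels do not name the clone, and in the study the main Bmal1-/- line was a single clone with small insertions or deletions in both alleles.

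Metallothioneins are small cysteine-rich proteins that bind zinc and copper, and take up toxic metals such as cadmium. Mt1 and Mt2 are made in most tissues, Mt3 is known mainly from the brain and Mt4 from stratified squamous epithelium. The zinc-sensing transcription factor Mtf1 binds short metal response elements upstream of Mt1, Mt2 and Slc30a1, and Slc30a1 moves zinc out of the cell across the plasma membrane.

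The 4 metallothionein genes lie in 1 cluster on chromosome 8 in the mm9 build, all on the plus strand, in the order Mt4, Mt3, Mt2 and Mt1. The cluster spans 43.1 kb, with gaps of 13.6 kb between Mt4 and Mt3, 18.5 kb between Mt3 and Mt2, and 5.52 kb between Mt2 and Mt1. Mt4 (ENSMUSG00000031757) occupies chr8:96661104-96662931 and Mt3 (ENSMUSG00000031760) chr8:96676507-96678048. Mt2 (ENSMUSG00000031762) occupies chr8:96696518-96697467 and Mt1 (ENSMUSG00000031765) chr8:96702989-96704225. Mtf1 (ENSMUSG00000028890) is at chr4:124479348-124527044 and Slc30a1 (ENSMUSG00000037434) at chr1:193730646-193737126, both also on the plus strand. No other annotated gene overlaps a metallothionein gene. Slc30a1 overlaps the antisense gene 1700034H15Rik, and Mtf1 overlaps n-R5s192 and the antisense gene 1110065P20Rik. Whether reads were counted by strand is not given in the sources used here, so reads of such partners may not have been told apart.

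The upstream sequences were read because Mt1, Mt2 and Mt4 were all lower in Bmal1-/- mESCs. Matches to the core of the metal response element (TGCACNC or TGCGCNC) were searched on both strands, together with the E-box CACGTG, the site bound by Bmal1 with Clock, and the TATA box letters TATAAA. The 250 bases upstream of the annotated start of Mt4, chr8:96660854-96661103 on the plus strand of mm9, hold 1 match to the core, shown in capitals, which begins 91 bases before the start and reads on the minus strand:
Mt4 upstream: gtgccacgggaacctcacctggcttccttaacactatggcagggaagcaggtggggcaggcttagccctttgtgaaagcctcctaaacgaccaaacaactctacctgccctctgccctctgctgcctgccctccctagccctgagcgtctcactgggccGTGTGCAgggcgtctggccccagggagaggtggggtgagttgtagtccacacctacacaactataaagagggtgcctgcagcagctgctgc

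The same 250 bases precede Mt4 in the RefSeq promoter table (GRCm38). For Mt1, Mt2 and Mt3 the annotated start lies upstream of the TATA box letters, and the coding start is 222, 230 and 193 bases after the annotated start, so windows of 250 bases before the coding start were also searched. These windows were chosen after the annotation had been seen. Mt1 had 5 matches in this window, each shown in capitals with 8 bases on either side, in order along the plus strand of mm9 from chr8:96702958-96702980 to chr8:96703079-96703101:
Mt1 site 1: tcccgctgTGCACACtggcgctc
Mt1 site 2: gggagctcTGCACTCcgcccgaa
Mt1 site 3: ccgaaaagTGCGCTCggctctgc
Mt1 site 4: cgcctgctGGGTGCAaacccttt
Mt1 site 5: aaacccttTGCGCCCggactcgt

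The corresponding window of Mt2 had 4 matches, from chr8:96696514-96696536 to chr8:96696621-96696643, of which the first 3 read on the minus strand:
Mt2 site 1: ttcgggtcGTGCGCAggcccagg
Mt2 site 2: aaaagggcGTGTGCAggcggcgg
Mt2 site 3: gcgggggcGCGTGCAtggtgcct
Mt2 site 4: ggagctttTGCGCTCgacccaat

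Among 21650 such windows of the annotation, 22.4% held at least 1 match. Only 12 windows (0.0554%), Mt1 included, held as many as the 5 matches of Mt1, and 71 (0.328%) held at least the 4 of Mt2. Mt3 had 3 matches, a number reached by 1.31% of windows, whereas Mt4 and Slc30a1 had 1 each and Mtf1 had 0. The E-box letters were found in 4.93% of windows, with 1 match in that of Mtf1 and 0 in those of the 4 metallothionein genes and Slc30a1. The coding start of Mtf1 is 2607 bases after its annotated start. Its match begins 2597 bases after the annotated start, so it lies inside the gene and not upstream of it. In the 250 bases before the annotated starts, each of the 6 members had 0 E-box matches, against 6.52% of windows with a match. The letters TATAAA were present in each of the 4 metallothionein windows and in 13.3% of all windows. Within 250 bases of the annotated starts, where 23.5% of 22375 windows held a match to the core, Mt1 had 1 match, Mt2 had 3, Mt3 had 0, Mt4 had 1, Mtf1 had 0 and Slc30a1 had 1. The match of Slc30a1 there begins 29 bases before its start, at chr1:193730609-193730631 with flanks:
Slc30a1 site: ggggttccGAGTGCAaagcaaag

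These are matches of letters in fixed windows, and binding was not measured.

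Libraries held between 21504265 and 23329034 reads on genes. A value is a read count scaled by the authors with TMM, a method that makes the levels of most genes comparable between libraries. The smallest possible nonzero value, 1 read, was worth between 0.939 and 1.06. The targeted gene Arntl, which encodes Bmal1, had values of 678 and 733 in wild-type and 556 and 590 in Bmal1-/- libraries (log2 fold change −0.30), and a count over the whole gene is no check of a small insertion or deletion. The study itself reported that RT-qPCR found no Bmal1 mRNA in its Bmal1-/- mESCs and that Western blot found no detectable protein. Why reads on Arntl remained while RT-qPCR found no mRNA was not tested. The test covered 14510 genes whose values averaged 10 or more, of which 7639 (52.6%) passed in either direction, where passing means an adjusted p under 0.05 in limma on log2(value + 1). In Bmal1-/- mESCs 24% of the tested genes were higher and 28.6% lower, with a median log2 fold change of −0.03. Of the tested genes 1046 passed and were over 2-fold changed. Only 211 (1.45% of those tested) were over 2-fold lower, so most of the larger changes were increases. A call by itself thus says little, and the size of each change and its place among genes of like level are given below.

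Mt1 and Mt2, the metallothioneins of most tissues, fell more than 2-fold in Bmal1-/- mESCs. Mt2 was the most abundant member, with values of 17232 and 19436 in wild-type and 8103 and 7941 in Bmal1-/- libraries. Both wild-type values were above both Bmal1-/- values, by more than the spread within either group. Mt2 fell by 1.19 on the log2 scale (SE 0.05, adjusted p = 2.5e-14, limma), to 43.8% of the wild-type mean. Mt1 had values of 10058 and 10621 in wild-type and 4920 and 4526 in Bmal1-/- libraries. These groups did not overlap either, as was the case for 76% of all tested genes (41.4% with both Bmal1-/- values lower). Mt1 fell by 1.13 (SE 0.04, adjusted p = 3e-14, limma), to 45.7% of the wild-type mean. The SE and p-values here borrow spread from genes of like level. In limma without trend, which does not pool by level, the adjusted p was 0.0077 for Mt2 and 0.0068 for Mt1.

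**Figure D1:**
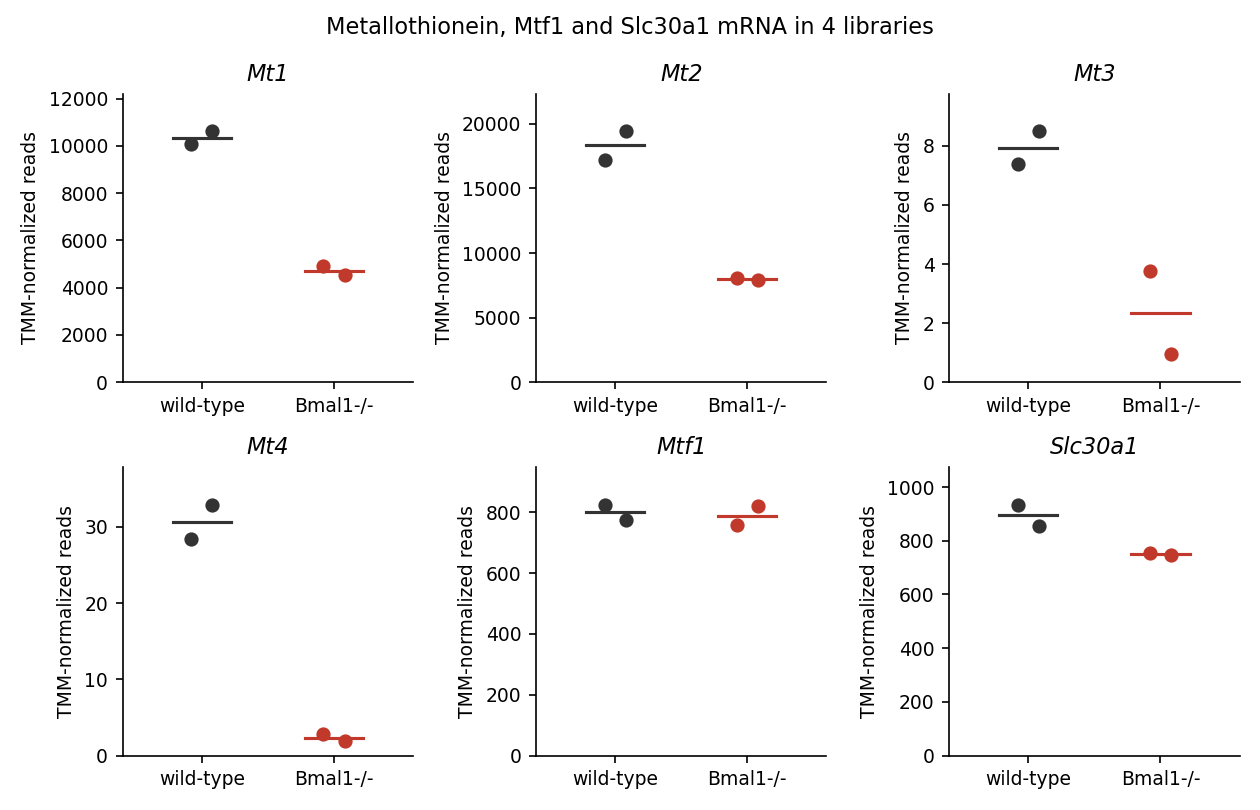
TMM-normalized reads (vertical axes, from 0) of each gene in the 2 wild-type (dark) and 2 Bmal1-/- (red) libraries, with each point a library and each line a group mean. The groups are separate for Mt1, Mt2, Mt3, Mt4 and Slc30a1, and overlap for Mtf1, whose values run from 757 to 825, while 76% of all tested genes had separate groups.

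Changes of this size were uncommon among abundant mRNAs. Of 4770 genes averaging 1000 or more, 20 passed and were over 2-fold lower, and Mt2 had the 10th and Mt1 the 12th lowest log2 fold change among the 4770. Among the 514 genes whose mean was within 2-fold of that of Mt2, none but Mt2 itself was as low, and the median of those genes was −0.09. Among the 1067 genes within 2-fold of Mt1, 2 were as low, Mt1 itself and Mt2, and the median was −0.08.

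**Figure D2:**
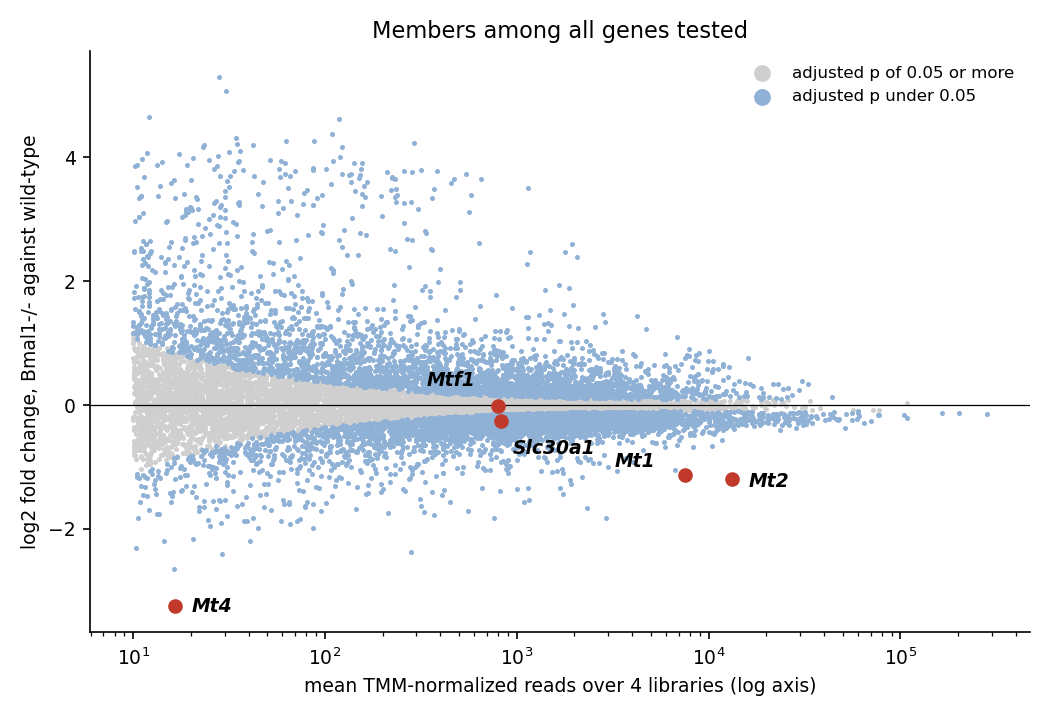
Log2 fold change in Bmal1-/- against wild-type mESCs (vertical axis) against the mean TMM-normalized reads over 4 libraries (horizontal log axis) for the 14510 genes tested, with genes past an adjusted p of 0.05 in blue. The 5 members that passed the filter are in red, with Mt4 shown as a description and not as a test result. Mt1 and Mt2 stand at the lower edge of the abundant genes, Mt4 is the lowest point, and Mtf1 lies near 0.

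Mt1 and Mt2 moved together. The ratio of Mt2 reads to Mt1 reads was 1.71 and 1.83 in wild-type and 1.65 and 1.75 in Bmal1-/- libraries, so the ratios of the 2 groups overlapped while both mRNAs fell. Both genes supplied 99.9% to 100% of the reads on the 4 metallothionein genes in each library. Together the 4 genes took 0.119% and 0.132% of all reads on genes in wild-type and 0.0595% and 0.0568% in Bmal1-/- libraries. As RPKM, which scales reads to exon length and library total so that genes can be compared, Mt2 stood at 1353 and 1530 in wild-type libraries and at 665 and 651 in Bmal1-/- libraries, while Mt1 stood at 583 and 617 and at 298 and 274. Mt2 was thus above Mt1 in every library on this scale, and both ranked above 98.9% to 99.8% of the tested genes in each library. Their annotated exons begin upstream of the TATA box, and those of Mt1 include a retained intron, so the exon lengths used may exceed those of the main mRNAs. In bulk RNA, fewer cells expressing a gene and less RNA per cell cannot be told apart.

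Mt4, the metallothionein of squamous epithelium, had few reads. Its values were 28.4 and 32.9 in wild-type and 2.82 and 1.91 in Bmal1-/- libraries, which correspond to 27 and 31 reads and to 3 and 2 reads. Wild-type libraries were both far above the Bmal1-/- libraries, where Mt4 was close to the limit of detection. The log2 fold change that selected the group was −3.25 on the log2(value + 1) scale. Over summed reads, 58 against 5, the wild-type level was 13.0-fold the Bmal1-/- level, with an exact 95% interval of 5.25 to 41.4. The interval covers counting error only and makes no allowance for the choice of Mt4 as the lowest of 14510 genes, so it gives the precision of these reads and is not a test. Mt4 was at 3.18 and 3.69 RPKM in wild-type libraries, above 39.5% and 42.3% of the tested genes, and at 0.329 and 0.222 in Bmal1-/- libraries. The next lowest log2 fold changes among the genes tested were those of the transcription factor genes Olig3 (−2.65) and Sox7 (−2.41).

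Mt3, the brain metallothionein, was below the mean of 10 required for testing. It had 7 and 8 reads in wild-type and 4 and 1 reads in Bmal1-/- libraries, with values of 7.37 and 8.50 and of 3.76 and 0.954. The groups did not overlap, and the wild-type level was 3.35-fold the Bmal1-/- level over summed reads, with an exact 95% interval of 1.16 to 11.8 for counting error only. At 1 to 8 reads a library, the size of this difference is poorly determined.

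The transcripts of the 4 metallothionein genes were compared for shared stretches that could move reads of 75 bases from 1 gene to another. The longest run of shared bases was 27, between Mt1 and Mt3, and that of Mt1 and Mt2 was 20. No run of 75 bases of these transcripts occurred in another coding gene. Mt2 had 3 other matches of at least 75 bases in the genome, at an identity of at most 88.3%.

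Mtf1, the transcription factor that senses zinc, did not differ detectably. Its values were 825 and 774 in wild-type and 757 and 819 in Bmal1-/- libraries, and the groups overlapped. The log2 fold change was −0.021 (SE 0.06, adjusted p = 0.8, limma), and it was 0.039 with equal library totals, 0.028 after quantile normalization and −0.0061 with median-ratio size factors. Slc30a1, the zinc exporter of the plasma membrane, had values of 934 and 855 in wild-type and 754 and 748 in Bmal1-/- libraries. Both Bmal1-/- values were below both wild-type values, at 83.9% of the wild-type mean. Slc30a1 fell by 0.25 (SE 0.06, adjusted p = 0.0023, limma), a call that was lost with DESeq2 on whole reads (adjusted p = 0.056) and in limma without a mean-variance trend (adjusted p = 0.06). Of the 4327 tested genes with a mean within 2-fold of that of Slc30a1, 989 had as low a log2 fold change, so its change was common at this level of expression. Of the 6 members, Mt1, Mt2 and Slc30a1 were thus lower by the limma test, Mtf1 did not pass, Mt3 was not tested and Mt4 chose the group. With 28.6% of all tested genes lower, the number of members called is not itself a result.

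Genes around the cluster did not show changes of the size seen for Mt1 and Mt2. Of 21 other annotated genes within 500 kb of the cluster, 11 passed the filter. Of these, 2 were higher (18.2%, against 24% of all tested genes) and 4 lower (36.4%, against 28.6%) by the limma test. Their median was −0.10, with a range from −0.35 to 0.73. The nearest tested gene on the Mt4 side was Bbs2, a gene of the primary cilium, at −0.25 (SE 0.08), and the nearest beyond Mt1 was Nup93, a nuclear pore gene, at −0.15 (SE 0.04). The largest decrease was that of Nudt21, an mRNA 3′ end processing factor, with values of 1942 and 2076 in wild-type and 1585 and 1572 in Bmal1-/- libraries. Pllp, a myelin membrane gene, was higher by 0.73 (SE 0.27) at values of 21.1 and 20.2 in wild-type and 38.5 and 31.5 in Bmal1-/- libraries. None of the 11 was over 2-fold changed. Small changes here moved when 1 library was left out: Bbs2 was at −0.15 without wild-type replicate 2 and at −0.28 without Bmal1-/- replicate 2. With DESeq2 on whole reads 2 calls were made in place of 6.

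**Figure D3:**
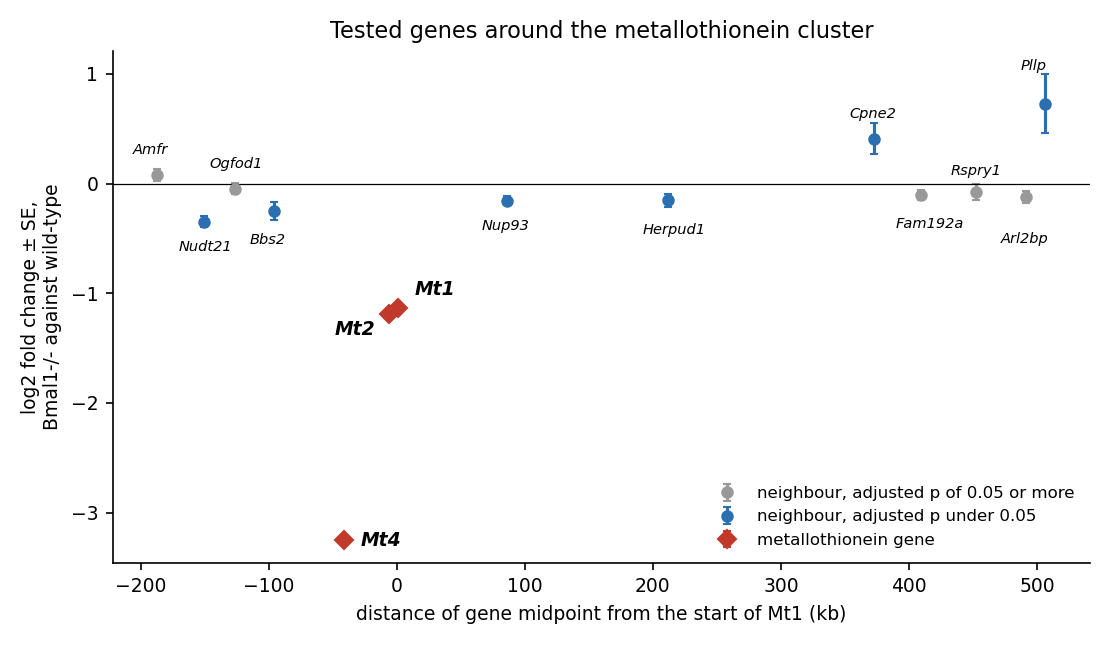
Log2 fold change in Bmal1-/- against wild-type mESCs (vertical axis, bars ± SE except for Mt4) against the distance of the gene midpoint from the start of Mt1 in kb (horizontal axis) for the 11 tested neighbours and for Mt1, Mt2 and Mt4. All neighbours lie between −0.35 and 0.73, above the 3 metallothionein genes.

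Genes other than the members that are described as Mtf1 targets were next compared. Of 7 such genes 5 were tested, of which 0 were higher (against 24% of all tested genes) and 3 were lower (60%, against 28.6%). Their median was −0.20. The list does not record whether Mtf1 raises or lowers each gene, so its counts and median are no measure of Mtf1 activity. The stress-response gene Ndrg1 had values of 427 and 382 in wild-type and 212 and 205 in Bmal1-/- libraries and fell by 0.95 (SE 0.09, adjusted p = 5.1e-08, limma). Csrp1, a LIM domain protein gene, had values of 2392 and 2199 and of 1760 and 1728, and fell by 0.39 (SE 0.05, adjusted p = 1.8e-06, limma). Sepw1, a selenoprotein gene, fell by 0.20 (SE 0.05), a call lost in limma without trend (adjusted p = 0.054) and in DESeq2 (adjusted p = 0.059). Gclc, the catalytic subunit for the first step of glutathione synthesis, was at 0.017 and the zinc importer Slc39a10 at −0.07, and neither passed. Slc40a1 and Pgf were under the filter.

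Members of the zinc exporter family were called in both directions, at shares not far from those of all tested genes. Of 10 Slc30a genes 9 were tested, with 3 higher (33.3%, against 24% of all tested genes) and 3 lower (33.3%, against 28.6%) and a median of −0.06. Slc30a10, better known for exporting manganese, had values of 22.1 and 24.4 in wild-type and 62.0 and 58.2 in Bmal1-/- libraries. Its log2 fold change of 1.33 (SE 0.23, adjusted p = 6.1e-05, limma) was the only one of the list over 2-fold. Slc30a4, which loads zinc into vesicles, was higher by 0.75 (SE 0.10, adjusted p = 4.1e-06, limma), with values of 193 and 234 in wild-type and 348 and 367 in Bmal1-/- libraries. Slc30a3, which loads zinc into synaptic vesicles, fell by 0.69 (SE 0.16, adjusted p = 0.0014, limma) from 118 and 96.7 to 63.9 and 67.7. Slc30a7 was higher by 0.20 and Slc30a6 fell by 0.21, and these 2 calls, like that of Slc30a1, were not made under every alternative. The remaining tested exporters, Slc30a2, Slc30a5 and Slc30a9, did not pass, and Slc30a8 had 0 reads in every library.

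Of 14 Slc39a genes, which bring zinc into the cytosol, 11 were tested. Of these, 1 was higher (9.09%, against 24% of all tested genes), 1 lower (9.09%, against 28.6%) and 9 did not pass. Their median was −0.05. Slc39a14, an importer of zinc, iron and manganese, had values of 222 and 227 in wild-type and 119 and 122 in Bmal1-/- libraries. It fell by 0.89 (SE 0.12, adjusted p = 2.1e-06, limma). Slc39a6 was higher by 0.39 (SE 0.06, adjusted p = 2.6e-05, limma), with values of 665 and 668 in wild-type and 881 and 861 in Bmal1-/- libraries. Slc39a2, with a fitted log2 fold change of 0.69, did not pass (adjusted p = 0.058, limma) at values between 15.9 and 30.1.

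**Figure D4:**
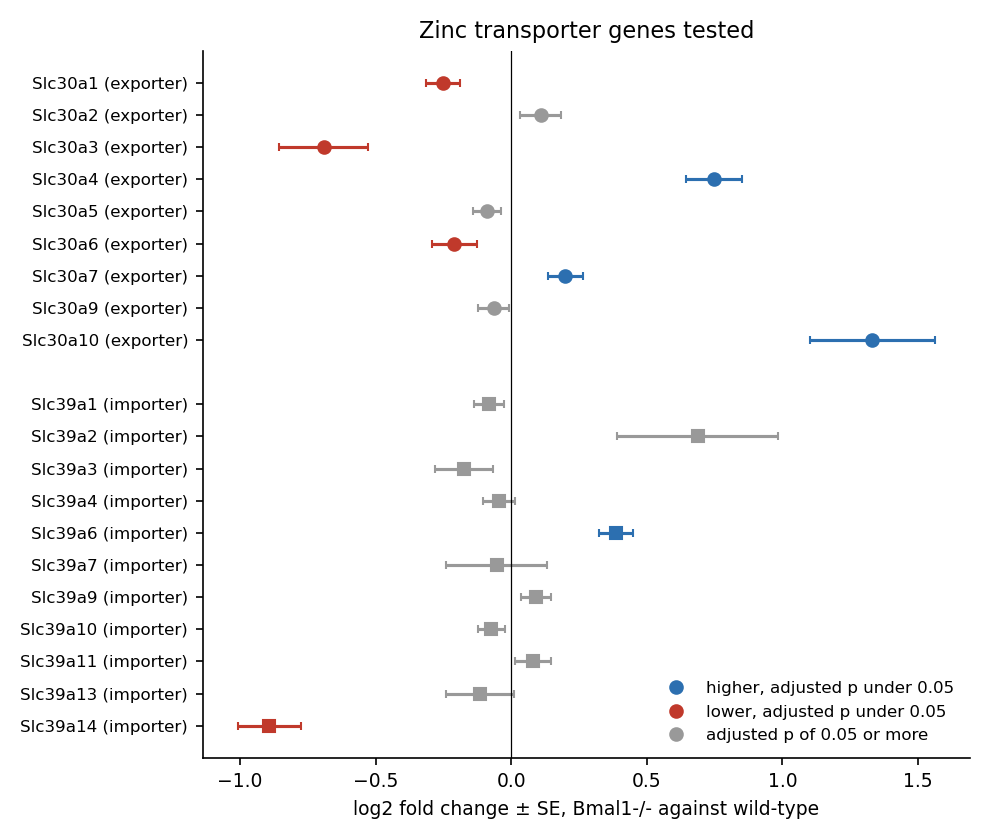
Log2 fold change in Bmal1-/- against wild-type mESCs (horizontal axis, bars ± SE) of the 9 tested Slc30a exporter genes (circles) and 11 tested Slc39a importer genes (squares), with genes past an adjusted p of 0.05 in blue when higher and red when lower. Slc30a10 at 1.33 and Slc30a4 at 0.75 are the highest called genes, and Slc39a14 at −0.89 is the lowest.

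Other metals that metallothioneins or their regulators meet were covered by lists for copper and iron. In the copper list 10 of 11 genes were tested, with 1 higher (10%, against 24% of all tested genes) and 5 lower (50%, against 28.6%). The median was −0.16. Atp7a, the copper-exporting ATPase, was higher by 0.78 (SE 0.09), with values of 422 and 334 in wild-type and 632 and 661 in Bmal1-/- libraries. The chaperone Atox1, which hands copper to Atp7a, fell by 0.43 (SE 0.06), and Sod1, the copper and zinc superoxide dismutase, fell by 0.40 (SE 0.04) from 13439 and 13570 to 10307 and 10133. Sco1, Commd1 and Ccs were lower by smaller amounts, and their calls were lost with DESeq2 on whole reads. In the iron list 7 of 9 genes were tested, with 1 higher (14.3%, against 24% of all tested genes) and 5 lower (71.4%, against 28.6%). The median was −0.14. Hmox1, the haem-degrading enzyme that metals induce, fell by 0.45 (SE 0.05), from 2116 and 2286 to 1632 and 1592. The ferritin heavy chain gene Fth1 fell by 0.28 (SE 0.04) and Aco1, the iron-responsive aconitase, fell by 0.29 (SE 0.05). Ireb2, the other iron regulatory protein gene, was higher by 0.27 (SE 0.04). Tfrc was at −0.14 and Ftl1 at −0.11, and Ftl1 was at 0.03 after quantile normalization.

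Metallothionein genes also respond to stress and to glucocorticoids, and a list for each was examined. Of 7 genes tied to heat or heavy metal stress, all were tested, with 1 higher (14.3%, against 24% of all tested genes) and 4 lower (57.1%, against 28.6%). The median was −0.13. Apart from Hmox1, which is also in the iron list, the 3 lower genes Dnajb1, Hspb1 and Hsf1 fell by 0.14, 0.13 and 0.14, and Hspa1b was higher by 0.36. With DESeq2 on whole reads this list held 1 call. Of 9 genes of the glucocorticoid response 3 were higher (33.3%, against 24% of all tested genes), 3 lower (33.3%, against 28.6%) and 3 did not pass. Their median was 0.15. Klf9 was higher by 0.74 (SE 0.05), with values of 2200 and 2005 in wild-type and 3496 and 3511 in Bmal1-/- libraries. Nfkbia fell by 0.55 (SE 0.07) and Fkbp5, an inducible chaperone of the receptor, fell by 0.24 (SE 0.04). The receptor gene Nr3c1 was higher by 0.39 (SE 0.11), a call made in 11 of 16 alternatives. It was lost, among others, in limma without trend (adjusted p = 0.076) and in DESeq2 (adjusted p = 0.053). Sgk1 (0.15) and Dusp1 (−0.24) also lost their calls in some alternatives.

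Markers of other cell types were compared because Mt3 and Mt4 are known from other tissues. The pluripotency markers Pou5f1, Nanog, Sox2, Zfp42, Esrrb, Klf4 and Tbx3 were all detected, with summed values of 84462 and 84386 in wild-type and 84394 and 85615 in Bmal1-/- libraries. The close sums were made of changes in both directions, since Nanog (0.25), Klf4 (0.16) and Tbx3 (0.36) were higher by the limma test and Pou5f1 (−0.13), Sox2 (−0.17), Zfp42 (−0.14) and Esrrb (−0.14) were lower. The 8 markers of stratified squamous epithelium summed to 83.2 and 90.3 in wild-type and 79.8 and 62.0 in Bmal1-/- libraries, with 4 of 8 at 0 in each wild-type library and 2 of 8 at 0 in each Bmal1-/- library. Ivl was at 0 in every library, Krt1 and Krt4 were at 0 in both wild-type libraries, and Krt10 with Krt13 supplied most of the sum. The 7 neural and astrocyte markers summed to 840 and 789 in wild-type and 739 and 729 in Bmal1-/- libraries, mostly from Aldh1l1, with Aqp4 at 0 in every library and 1, 3, 3 and 2 of 7 at 0 in the 4 libraries. Slc30a3 is 1 of these 7 markers. The 5 fibroblast markers summed to 70.6 and 76.5 in wild-type and 108 and 97.3 in Bmal1-/- libraries, and the 5 primitive endoderm markers to 139 and 163 and to 162 and 156. Within the endoderm sum Sox7 was lower (−2.41), while Sox17 (1.27) and Gata4 (0.55) were higher by the limma test, and Gata6 and Foxa2 were not tested. Of the fibroblast markers Thy1 was higher (0.59). Any part of these cell types in the metallothionein levels was not tested.

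Genes with the pattern most like a member over the 4 libraries were found by the Euclidean distance between centred log2(value + 1) profiles, over 14509 other tested genes. Those closest to Mt1 were Ifitm3 (distance 0.069), Agpat4 (0.081), Gpx2 (0.084), Msrb2 (0.092) and Lrrc15 (0.096), and Mt2 was 9th (0.110). Ifitm3, an interferon-induced membrane protein gene, had values of 4358 and 4651 in wild-type and 2255 and 2058 in Bmal1-/- libraries. Gpx2, a glutathione peroxidase gene, had values of 2386 and 2382 in wild-type and 1127 and 1093 in Bmal1-/- libraries. The genes closest to Mt4 were Prlr (0.993), Rhox9 (1.08), Pdlim4 (1.26), Sox7 (1.30) and Olig3 (1.30), at larger distances than any of those for Mt1. Prlr, the prolactin receptor gene, had values of 17.9 and 18.1 in wild-type and 2.82 and 2.86 in Bmal1-/- libraries. With 4 libraries these distances mostly order genes by the size of the difference between the groups.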

How the data were processed

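Poly(A)-selected, stranded mRNA libraries (2 wild-type, 2 Bmal1-/-) were processed by the authors, whose processing notes name bcl2fastq 2.18.0.12, cutadapt 1.9.1 and STAR 2.5.2b with mm9. The counting tool and its annotation are not given in the sources used here. The deposited signal is a read count per gene scaled by TMM (NOISeq) by the authors. All values (100%, within 0.01 reads) were whole multiples of 1 read, so whole reads were recovered. Columns of authors' comparisons were not present in the table analysed here.

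Genes averaging 10 or more entered limma 3.58.1 (trended empirical Bayes, R 4.3.3) on log2(value + 1), a scale that understates changes of low genes, with Benjamini-Hochberg adjustment over 14510 genes. On simulated data it recovered 92 of 100 genes changed 2-fold, edgeR recovered 92 and DESeq2 80. Only 100 genes changed by 1 and 100 by 2 on the log2 scale were simulated among 14510. In the data 7639 genes passed, so these rates need not hold there. edgeR 4.0.16 and DESeq2 1.42.0 on whole reads were alternatives, and called 7682 and 5226 genes. Other alternatives were filters, pseudocounts, scalings, limma without trend, a replicate block and leaving out each library. Exon lengths, neighbours and upstream windows came from GENCODE on mm9 (NCBIM37). Named genes were the 6 members, genes of the lists, the 5 closest profiles to Mt4 and to Mt1, Arntl, and the 2 lowest genes after Mt4. The members and lists were chosen with earlier results of these data known.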

Additional observations from a re-analysis of the deposited data

How the results depend on the processing

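Mt1 and Mt2 were lower with an adjusted p of at most 0.0077 under every alternative that was run (limma, edgeR or DESeq2), with ranges from −1.19 to −1.07 and from −1.28 to −1.10. Of 234 alternative values, 198 were classed as unchanged. For members with a test this meant the same direction and side of the threshold. For Mt3 and Mt4 it meant a move smaller than their spread between libraries, which took in −0.91 and −2.19 for Mt3. Many of the 234 were counts of calls, which have no direction and were classed as unchanged within a loose margin. That margin took in 5226 genes for 7639 and 4 copper calls for 6, so 198 overstates how stable the results were. Mt4 moved to −1.72 with a pseudocount of 10, −3.58 after quantile normalization, −3.60 in edgeR and −3.67 in DESeq2, and Mt3 to −0.55 with a pseudocount of 10, −0.91 without Bmal1-/- replicate 2 and −2.19 without Bmal1-/- replicate 1. Mtf1 changed sign, to 0.039 with equal library totals, 0.028 after quantile normalization, 0.0030 in edgeR and 0.010 in DESeq2, and ran from −0.078 to 0.035 when 1 library was left out, being positive (0.024 and 0.035) without wild-type replicate 1 or Bmal1-/- replicate 1. Slc30a1 lost its call at −0.25 in limma without trend and at −0.22 in DESeq2. Limma without trend called 5060 genes in place of 7639, and gave 3 calls for zinc exporters, 3 for copper, 1 for heat shock and 3 for neighbours. DESeq2 gave 3, 3, 1 and 2 for the same lists. With equal library totals zinc importers had 4 calls and heat shock 2, with quantile normalization heat shock had 2 and neighbours 2, with no filter heat shock had 1 and neighbours 2, and with a mean of at least 1 each had 3. A fit without 1 library leaves a single library in a group. A call lost there need not mean that the change depended on that library. Calls made under every alternative run were those of Slc30a3, Slc30a4 and Slc30a10 (3 of 6), both importers, Ndrg1 and Csrp1 (2 of 3), Atp7a, Atox1 and Sod1 (3 of 6), Fth1, Ireb2, Aco1 and Hmox1 (4 of 6), Hmox1 (1 of 5 for heat shock), Fkbp5, Klf9 and Nfkbia (3 of 6) and Nudt21 (1 of 6 neighbours). The cause of these moves was not tested.

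The sample titles number the libraries of both groups Exp 1 and Exp 2, and whether same-numbered cultures were paired is not stated. Deviations of same-numbered libraries correlated at −0.02 over 14510 genes. No strong shared effect was thus seen, but this cannot show that the cultures were unpaired. The main fit treated them as unpaired. With a replicate block 7949 genes passed, and no call of a member and no count for a list changed. No value for Mt4 was obtained with a mean of at least 100. Mt3 had none there, nor without trend, with the block, in edgeR or in DESeq2. With 2 libraries per line and reads of 1 to 31 for Mt3 and Mt4, depth limits the size of their differences and replication limits all of them.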
